A study of Homo sapiens with 18 samples.

Results

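The 10 genes described here brake or drive the passage from G1 into S phase, and were followed across PC9 cells that survive, or are first exposed to, cancer drugs. They are the CDK inhibitors CDKN1A, CDKN1B, CDKN1C, CDKN2B, CDKN2C and CDKN2D, the D-type cyclins CCND1, CCND2 and CCND3, and the RB family gene RBL2, chosen by name, and make 10 of the 30727 gene identifiers of the table. PC9 is a human lung adenocarcinoma line whose growth depends on a mutant EGFR, and all 18 libraries come from it, 3 in each of 6 groups. DTP_TSA are drug-tolerant persisters given trichostatin A (TSA), which blocks histone deacetylases, at 50 nM for 5 hours without a change of medium. DTP, the drug-tolerant persisters themselves, are the cells left after 8 days in 1 µM erlotinib, an EGFR inhibitor, renewed every 3 days. The erlotinib_24h cells had 1 µM erlotinib for 24 hours, and the carboplatin_72h cells had 50 µM of the DNA-crosslinking drug carboplatin for 72 hours, renewed daily. The parental_TSA cells had 50 nM TSA for 5 hours without earlier drug, and the parental_DMSO cells had only the solvent. All were grown in medium with 10% serum, and the labels do not say whether the 3 libraries of a group, a, b and c, came from separate cultures. The spread behind each p-value is therefore that between these libraries only, and may be technical.

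D-type cyclins activate CDK4 and CDK6, which phosphorylate RB1 and its relatives RBL1 and RBL2 and so release E2F transcription factors that switch on S-phase genes. INK4 proteins, made by the CDKN2 genes, bind CDK4 and CDK6 and keep D cyclins away, while CIP/KIP proteins, made by the CDKN1 genes, bind cyclin-CDK complexes and block CDK2 above all. RBL2 sits with E2F4 and the MuvB proteins in the DREAM complex, which silences cell cycle genes in resting cells, and growth factor receptors such as EGFR act on this circuit mainly through the level of cyclin D1.

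Levels are in CPM, the reads of a gene relative to a fixed number of gene reads per library, after TMM scaling, and differences are log2 fold changes ± standard error from 1 edgeR model over all libraries, with p-values adjusted over the 17641 genes tested and called below 0.05. Libraries held 32139343 to 128293531 gene reads. DTP_TSA a stood apart, with 99.9 spike-in reads per 100 gene reads against 0.321 to 0.786 in the other 17 libraries. The next farthest from its group was parental_TSA a. Results are given without both of these libraries where that changes a call, and for some values that shift without a change of call. Spike-ins had been added by cell number, and an alternative scaling to spike-in reads, which left out DTP_TSA a, is named as spike-in scaling where it changes a call. All 5 epithelial markers were above 1 CPM in every group, with sums from 2928 to 7105 CPM. Sums of markers of other cell types were low but moved with the groups. The 4 endothelial markers summed to 113 to 118 CPM in erlotinib_24h and 17.5 to 18.4 CPM in parental_DMSO, the 5 leukocyte markers to 67.3 to 70.7 CPM in carboplatin_72h and 29.9 to 32.6 CPM in parental_DMSO, and the 6 fibroblast markers, of which only COL1A1 passed 1 CPM, to 24.3 to 28.3 CPM in DTP and 4.69 to 4.74 CPM in parental_DMSO. PECAM1 and CDH5 made up nearly all of these endothelial sums and CD68 of these leukocyte sums, while the pan-leukocyte gene PTPRC averaged 0.0334 CPM in carboplatin_72h and had no read in parental_DMSO. The endothelial genes KDR and VWF averaged 10.3 and 3.67 CPM in DTP_TSA, against 0.597 and 0.799 CPM in DTP. Their part in the results was not tested. In bulk RNA fewer cells making a transcript and less of it per cell cannot be told apart.

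The CIP/KIP inhibitors went in different directions. CDKN1A (p21), an inhibitor of CDK2 known to rise after DNA damage, was far lower after 24 hours of erlotinib, moderately lower in persisters and highest after carboplatin. CDKN1A had 107, 98.3 and 92.1 CPM in DTP_TSA, 43.6, 44.7 and 45.1 CPM in DTP, 6.33, 6.41 and 6.81 CPM in erlotinib_24h, 264, 245 and 276 CPM in carboplatin_72h, 87.0, 69.7 and 63.5 CPM in parental_TSA, and 73.9, 69.2 and 74.3 CPM in parental_DMSO. The parental_TSA libraries lay on either side of those of parental_DMSO, and no other groups overlapped. CDKN1A fell by 3.47 ± 0.10 on the log2 scale in erlotinib_24h (adjusted p = 1.11e-14) and by 0.70 ± 0.09 in DTP (adjusted p = 3.52e-06), and rose by 1.85 ± 0.09 (adjusted p = 3.49e-11) in carboplatin_72h, all against parental_DMSO. Persisters thus held 6.82 times the CDKN1A of erlotinib_24h cells, a difference of 2.77 ± 0.10 (adjusted p = 4.81e-13).

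CDKN1B (p27), the inhibitor that holds CDK2 in check in resting cells, moved opposite to CDKN1A in erlotinib_24h and DTP against parental_DMSO and in DTP against erlotinib_24h. CDKN1B had 16.3, 19.5 and 20.0 CPM in DTP_TSA, 39.8, 40.01 and 41.5 CPM in DTP, 75.3, 72.3 and 72.9 CPM in erlotinib_24h, 38.6, 37.2 and 37.9 CPM in carboplatin_72h, 34.0, 30.5 and 29.8 CPM in parental_TSA, and 30.6, 30.8 and 29.5 CPM in parental_DMSO. The erlotinib_24h libraries were the highest and the DTP_TSA libraries the lowest, with no overlap with any other group. CDKN1B rose by 1.28 ± 0.07 (adjusted p = 5.26e-11) in erlotinib_24h, by 0.42 ± 0.07 (adjusted p = 7.72e-05) in DTP and by 0.32 ± 0.07 (adjusted p = 9e-04) in carboplatin_72h against parental_DMSO. In DTP it was lower than in erlotinib_24h, at -0.86 ± 0.07 (adjusted p = 1.8e-08), where CDKN1A was higher.

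CDKN1C (p57), an imprinted inhibitor known from development, was hardly detected, and its reads are given in place of CPM. DTP_TSA had 16, 78 and 42 reads, DTP had 9, 2 and 3 reads, erlotinib_24h had 115, 143 and 103 reads, carboplatin_72h had 52, 40 and 41 reads, parental_TSA had 154, 109 and 145 reads, and parental_DMSO had 2, 2 and 1 reads. Even its highest group mean, 1.48 CPM in parental_TSA, was low, and it passed the expression filter only through the groups where it was raised. Per gene reads, the summed reads gave ratios to parental_DMSO of 64.2 (95% counting interval 27.2 to 199) in erlotinib_24h, 25.9 (10.8 to 81.0) in carboplatin_72h and 58.8 (24.99 to 182) in parental_TSA. A gene that passes in that way had to differ between groups, so no edgeR call of CDKN1C against parental_DMSO is given. For DTP the ratio was 2.57 (95% counting interval 0.874 to 9.11). DTP had 14 reads against 361 in erlotinib_24h, a ratio of 0.0400 (95% counting interval 0.0217 to 0.0680). Intervals cover only the counting error of reads summed over 3 libraries, not the spread between libraries. As the gene had to differ between groups, they are not to be read as tests.

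The RefSeq promoters of CDKN1A and CDKN1B (GRCh38.p14, 250 bases before to 50 after the start) are shown because the pair moved in opposite directions under erlotinib. They lie at chr6:36678464-36678763 on the plus strand and at chr12:12717118-12717417 on the plus strand. Capitals mark GC boxes, the letters GGGCGG or their reverse complement CCGCCC, which 45.0% of 35116 promoters of the same length hold. The CDKN1A window has 4 of them, of which 2 overlap in the run nearest the start, and the CDKN1B window has 1.
CDKN1A: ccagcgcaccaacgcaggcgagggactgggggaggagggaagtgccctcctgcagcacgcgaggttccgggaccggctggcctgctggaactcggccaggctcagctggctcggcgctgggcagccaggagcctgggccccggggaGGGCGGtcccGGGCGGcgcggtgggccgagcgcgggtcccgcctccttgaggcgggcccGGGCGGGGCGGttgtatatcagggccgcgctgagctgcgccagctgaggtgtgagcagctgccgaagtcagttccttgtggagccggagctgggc
CDKN1B: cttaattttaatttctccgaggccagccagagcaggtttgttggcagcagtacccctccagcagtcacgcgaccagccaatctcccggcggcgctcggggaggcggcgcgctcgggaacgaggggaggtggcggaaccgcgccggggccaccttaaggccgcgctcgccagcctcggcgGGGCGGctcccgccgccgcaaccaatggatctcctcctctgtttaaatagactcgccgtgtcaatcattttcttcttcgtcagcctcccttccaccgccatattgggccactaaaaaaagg
Neither window holds the E2F-like letters TTTNNCGC (6.9% of promoters), the forkhead letters GTAAACA (3.4%) or the CHR letters TTTGAA (15.2%) on either strand.

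**Figure D1:**
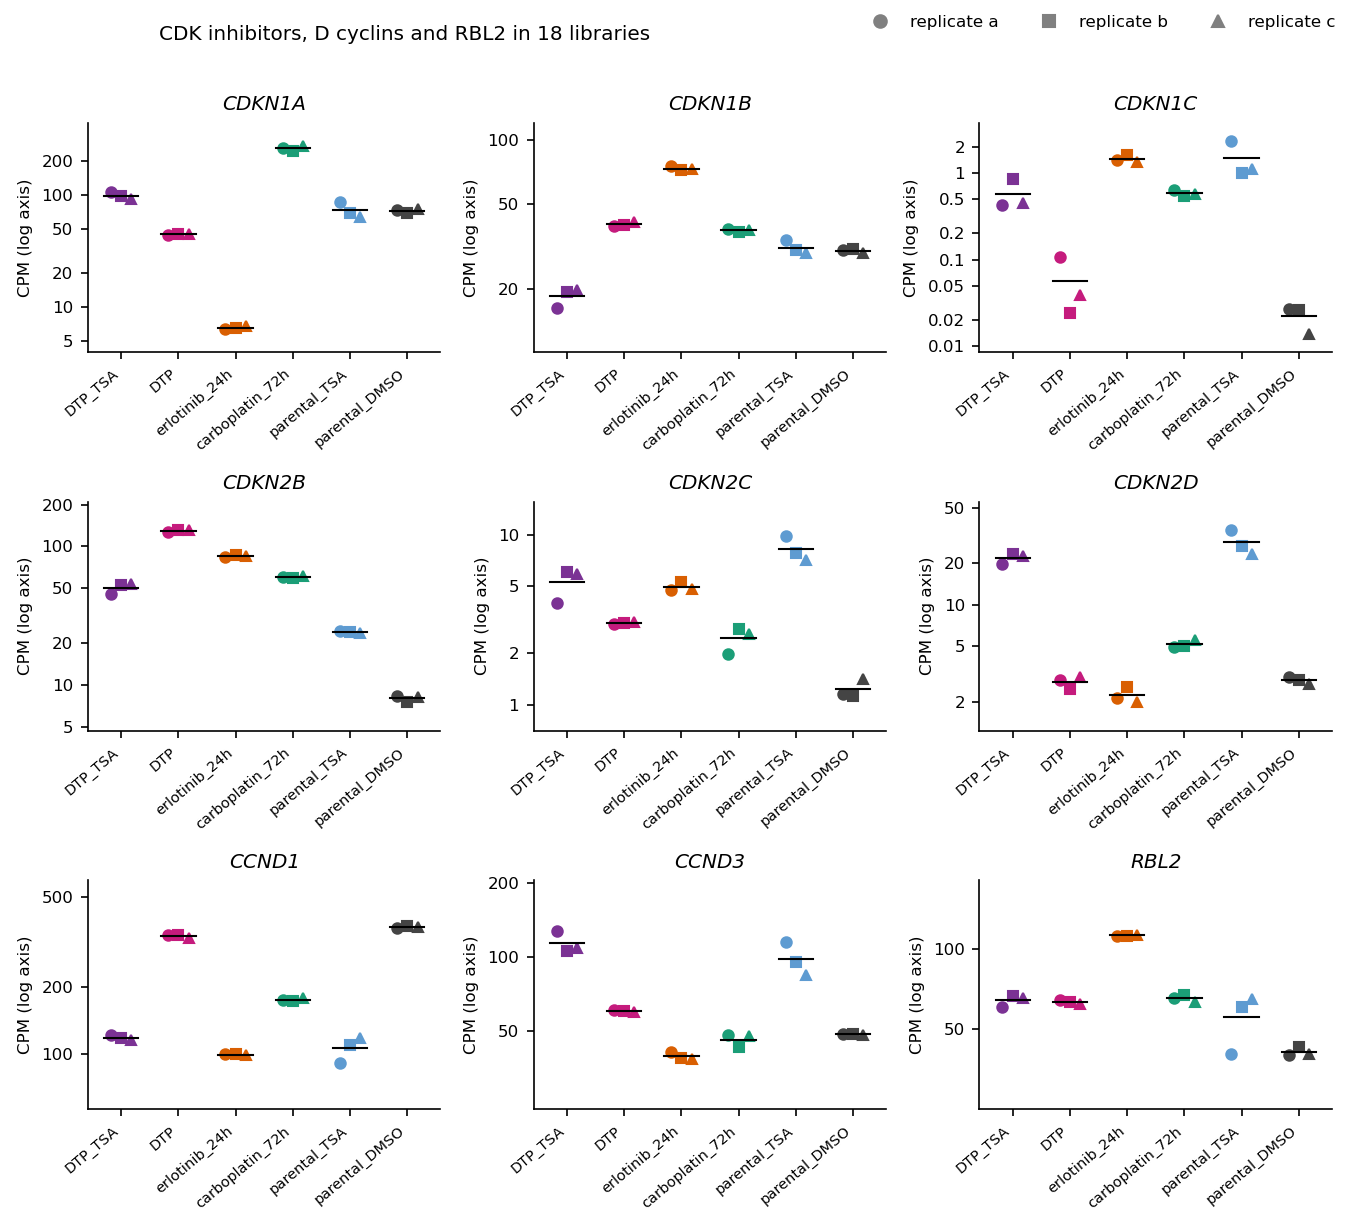
CPM on a log axis of the 9 genes that passed the expression filter, with 1 point per library (circle, replicate a; square, b; triangle, c) and a bar at the mean of 3 libraries per group. CDKN1A spans 6.33 to 276 CPM and is lowest in erlotinib_24h, CDKN2B is highest in DTP, and CDKN2D is raised in both TSA groups.

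Among the INK4 inhibitors, CDKN2B showed the largest rise of all called members in persisters. CDKN2B (p15) binds CDK4 and CDK6 and is known as a target of TGF-beta signalling. CDKN2B had 45.1, 52.9 and 53.6 CPM in DTP_TSA, 127, 131 and 131 CPM in DTP, 83.8, 86.8 and 85.4 CPM in erlotinib_24h, 60.2, 59.1 and 61.5 CPM in carboplatin_72h, 24.5, 24.3 and 23.8 CPM in parental_TSA, and 8.43, 7.53 and 8.17 CPM in parental_DMSO. No 2 groups overlapped, and parental_DMSO was the lowest. Against parental_DMSO it was 16.1 times as high in DTP, 4.01 ± 0.07 (adjusted p = 5.7e-17), 10.6 times in erlotinib_24h, 3.41 ± 0.07 (adjusted p = 1.47e-16), and 7.49 times in carboplatin_72h, 2.91 ± 0.07 (adjusted p = 9.23e-15). Of the inhibitors described here it was the 1 that was higher than parental_DMSO at 24 hours and higher still in persisters, by 0.61 ± 0.06 (adjusted p = 2.6e-07) in DTP over erlotinib_24h. The antisense gene CDKN2B-AS1 overlaps it, and whether counting used the strand is not stated. CDKN2B-AS1 had 29 to 163 reads per library, at most 8.96% of those of CDKN2B. The noncoding gene DINOL, which overlaps CDKN1A, was not analysed here.

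CDKN2C (p18), an INK4 protein known from cell differentiation, was low in all groups and lowest in parental_DMSO. CDKN2C had 3.97, 6.02 and 5.90 CPM in DTP_TSA, 2.99, 3.04 and 3.07 CPM in DTP, 4.73, 5.28 and 4.80 CPM in erlotinib_24h, 1.99, 2.78 and 2.59 CPM in carboplatin_72h, 9.77, 7.84 and 7.11 CPM in parental_TSA, and 1.16, 1.13 and 1.42 CPM in parental_DMSO. DTP_TSA overlapped erlotinib_24h, and no other groups overlapped. It rose by 1.30 ± 0.18 (adjusted p = 9.85e-06) in DTP, by 2.00 ± 0.18 (adjusted p = 3.26e-08) in erlotinib_24h and by 0.99 ± 0.18 (adjusted p = 0.000187) in carboplatin_72h. DTP stood below erlotinib_24h, at -0.70 ± 0.17 (adjusted p = 0.00216), or -0.25 (adjusted p = 0.237) in spike-in scaling.

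CDKN2D (p19), another INK4 protein, separated the TSA groups from the rest. CDKN2D had 19.6, 23.3 and 22.5 CPM in DTP_TSA, 2.84, 2.45 and 3.00 CPM in DTP, 2.13, 2.55 and 1.97 CPM in erlotinib_24h, 4.93, 5.05 and 5.55 CPM in carboplatin_72h, 34.7, 26.6 and 23.1 CPM in parental_TSA, and 2.99, 2.87 and 2.67 CPM in parental_DMSO. The 6 TSA libraries ran from 19.6 to 34.7 CPM and the 12 others from 1.97 to 5.55 CPM. In DTP it stood at -0.04 ± 0.15 (adjusted p = 0.831) against parental_DMSO, and carboplatin_72h was higher than parental_DMSO by 0.86 ± 0.14 (adjusted p = 6.74e-05). The decrease in erlotinib_24h, -0.36 ± 0.15 (adjusted p = 0.0404), lost its call without parental_DMSO a or b or without erlotinib_24h a or c (-0.35 to -0.28). In DTP over erlotinib_24h CDKN2D stood at 0.32 ± 0.15 (adjusted p = 0.0796), but was called in spike-in scaling (0.77, adjusted p = 0.000158). It was also called with the 2 groups fitted alone (0.28, adjusted p = 0.0430), without erlotinib_24h b (0.43, adjusted p = 0.0363), without parental_TSA a (0.32, adjusted p = 0.0255) and without both TSA libraries a (0.31, adjusted p = 0.0137).

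The promoters of CDKN2B and CDKN2D are set out because TSA moved CDKN2B in opposite directions in persisters and parental cells but raised CDKN2D in both. They lie at chr9:22009256-22009555 on the minus strand and at chr19:10568930-10569229 on the minus strand, with GC boxes again in capitals.
CDKN2B: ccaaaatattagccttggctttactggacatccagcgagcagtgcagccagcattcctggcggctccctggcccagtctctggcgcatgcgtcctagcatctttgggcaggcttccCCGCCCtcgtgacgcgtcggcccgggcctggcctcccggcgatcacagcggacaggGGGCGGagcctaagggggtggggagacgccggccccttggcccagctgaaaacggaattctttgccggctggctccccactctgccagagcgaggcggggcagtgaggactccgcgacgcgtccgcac
CDKN2D: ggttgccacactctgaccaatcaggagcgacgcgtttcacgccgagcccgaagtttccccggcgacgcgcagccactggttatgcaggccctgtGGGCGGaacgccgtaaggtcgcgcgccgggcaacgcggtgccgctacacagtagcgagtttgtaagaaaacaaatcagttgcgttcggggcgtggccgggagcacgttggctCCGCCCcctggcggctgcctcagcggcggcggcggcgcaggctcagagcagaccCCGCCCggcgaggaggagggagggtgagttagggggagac
The windows hold 2 and 3 GC boxes, and the CDKN2D window also holds 1 match to TTTNNCGC. GC content was 67.3% for CDKN2B, 68.0% for CDKN2D, 74.3% for CDKN1A and 62.3% for CDKN1B, against a median of 58.7% over all promoters. Of the 10 genes 7 had a promoter in the RefSeq table. CDKN1C, CCND1 and CCND2 are named only.

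The D-type cyclins split between CCND1, which most treatments lowered, and CCND3, which TSA raised. CCND1 (cyclin D1) is the cyclin that EGFR signalling is best known to control. CCND1 had 122, 118 and 116 CPM in DTP_TSA, 339, 339 and 328 CPM in DTP, 99.9, 100.4 and 98.8 CPM in erlotinib_24h, 175, 173 and 178 CPM in carboplatin_72h, 91.0, 110.3 and 118 CPM in parental_TSA, and 365, 372 and 369.8 CPM in parental_DMSO. DTP lay just below parental_DMSO without overlap, while erlotinib_24h and both TSA groups formed a low set. CCND1 fell by 1.89 ± 0.07 on the log2 scale in erlotinib_24h (adjusted p = 2.16e-13) and by 1.08 ± 0.07 in carboplatin_72h (adjusted p = 7.38e-10), the second of which lost its call in spike-in scaling (-0.43, adjusted p = 0.0636). In DTP, still in erlotinib, it stood at -0.14 ± 0.07 (adjusted p = 0.0914), with a 95% interval from -0.28 to 0.01, and so was 1.75 ± 0.07 (adjusted p = 1.7e-12) above erlotinib_24h. The DTP value was called with the 2 groups fitted alone (adjusted p = 0.000263), by DESeq2 (adjusted p = 0.0401), without parental_TSA a (adjusted p = 0.00142) or c (adjusted p = 0.0373) and without both TSA libraries a (adjusted p = 0.000502), each time between -0.15 and -0.13.

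CCND3 (cyclin D3), which also pairs with CDK4 and CDK6, had the narrower range without TSA, between 38.5 and 61.0 CPM. CCND3 had 128, 106 and 108 CPM in DTP_TSA, 61.0, 60.4 and 59.7 CPM in DTP, 41.1, 38.7 and 38.5 CPM in erlotinib_24h, 48.1, 42.9 and 47.6 CPM in carboplatin_72h, 115, 95.5 and 84.6 CPM in parental_TSA, and 48.6, 48.5 and 48.4 CPM in parental_DMSO. Both TSA groups lay above all others and overlapped each other. Against parental_DMSO it was higher in DTP by 0.32 ± 0.09 (adjusted p = 0.00727) and lower in erlotinib_24h, at -0.30 ± 0.09 (adjusted p = 0.00901), the second of which was not called with a filter of 1 CPM (-0.22, adjusted p = 0.0659). In carboplatin_72h it stood at -0.07 ± 0.09 (adjusted p = 0.535), but at 0.57 (adjusted p = 0.000601) in spike-in scaling. DTP was 0.61 ± 0.09 (adjusted p = 2.51e-05) above erlotinib_24h.

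CCND2 (cyclin D2) had 0, 2 and 4 reads in DTP_TSA, 2, 1 and 1 reads in carboplatin_72h, and 0, 1 and 0 reads in parental_TSA. No read was found in DTP, erlotinib_24h or parental_DMSO, where 3 reads over a group would be 0.0124, 0.0120 and 0.0135 CPM. It was not tested.

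The ratio of the pair of detected cyclins was lowest in the TSA groups. Divided by the longest coding transcript in GENCODE (4307 bases for CCND1, 2394 for CCND3), the ratio of CCND1 to CCND3 levels was 0.582 ± 0.0462 in DTP_TSA, 3.09 ± 0.0296 in DTP, 1.41 ± 0.0483 in erlotinib_24h, 2.11 ± 0.114 in carboplatin_72h, 0.619 ± 0.170 in parental_TSA and 4.23 ± 0.0503 in parental_DMSO (SD, n = 3). By these lengths CCND3 was the higher of the pair in all 6 TSA libraries and in none of the other 12. By the shortest coding transcripts (553 and 490 bases) it was the higher in 4 of the 6 TSA libraries, with a ratio above 1 in parental_TSA b and c, and in none of the other 12. The transcripts used by these cells were not measured, and another length would shift every ratio by 1 factor.

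**Figure D2:**
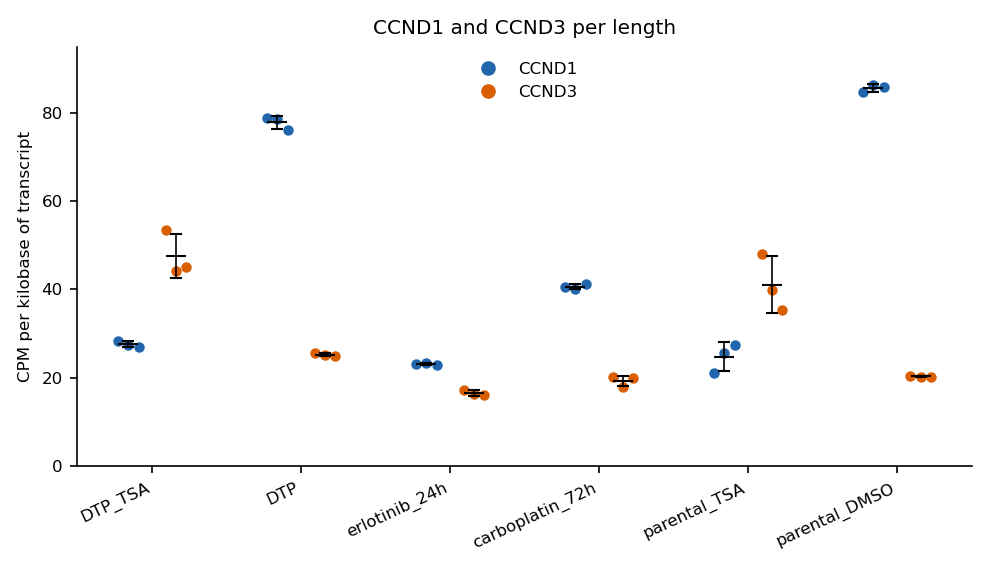
CPM per kilobase of the longest coding transcript for CCND1 and CCND3, with 1 point per library, the mean and an SD bar for 3 libraries per group. CCND1 averages 85.7 in parental_DMSO and 77.9 in DTP, and CCND3 lies above CCND1 in both TSA groups.

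RBL2 (p130), the RB relative of resting cells, was higher in every treated group's mean than in parental_DMSO. RBL2 had 60.4, 66.1 and 65.4 CPM in DTP_TSA, 64.2, 63.2 and 61.7 CPM in DTP, 111, 112 and 113 CPM in erlotinib_24h, 65.5, 67.1 and 62.9 CPM in carboplatin_72h, 40.2, 60.5 and 64.8 CPM in parental_TSA, and 39.9, 42.8 and 40.1 CPM in parental_DMSO. The erlotinib_24h libraries were the highest without overlap. The next 4 groups overlapped their neighbours, and parental_TSA a, at 40.2 CPM, lay among the parental_DMSO libraries. RBL2 rose by 1.45 ± 0.12 (adjusted p = 6.69e-09) in erlotinib_24h, by 0.62 ± 0.12 (adjusted p = 0.000181) in DTP and by 0.67 ± 0.12 (adjusted p = 9.54e-05) in carboplatin_72h. DTP was below erlotinib_24h, at -0.83 ± 0.12 (adjusted p = 1.03e-05), or -0.37 (adjusted p = 0.188) in spike-in scaling. The gene AKTIP overlaps RBL2 and had 1072 to 3869 reads per library, up to 78.8% of those of RBL2, so reads near their overlap cannot be assigned with certainty.

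Among the CDK inhibitors described here, which do not include CDKN2A, the inhibitor with the highest level per length differed between groups. Per kilobase of longest coding transcript it was CDKN1A in DTP_TSA (43.7 CPM), CDKN2B in DTP (33.2 CPM), CDKN1B in erlotinib_24h (27.7 CPM), and CDKN1A in carboplatin_72h (115 CPM), parental_TSA (32.4 CPM) and parental_DMSO (31.96 CPM). In DTP, CDKN2B was followed by CDKN1A at 19.6 CPM per kilobase. In erlotinib_24h, CDKN1B was followed by CDKN2B at 21.8 CPM per kilobase, and CDKN1A was at 2.88. The leading inhibitor was the same in all 6 groups when the shortest coding transcripts were used as lengths.

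Counts are given over 8 genes, leaving out CCND2, which was not tested, and CDKN1C. Most of the 8 changed in each of the 6 comparisons, as did most genes of the cell. Of these 8, 5 were higher and 1 lower in DTP than in parental_DMSO, where 58.9% of all genes tested were called, 31.0% higher and 27.8% lower. In erlotinib_24h 4 were higher and 4 lower, where 69.3% of all genes were called, 36.6% higher and 32.7% lower. In carboplatin_72h 6 were higher and 1 lower, where 58.9% of all genes were called, 30.3% higher and 28.6% lower. In parental_TSA 5 were higher and 1 lower, where 58.2% were called, 30.8% higher and 27.4% lower. These 4 comparisons share the parental_DMSO libraries. DTP_TSA had 4 higher and 3 lower than DTP, where 56.2% of all genes were called, 25.6% higher and 30.7% lower. DTP had 4 higher and 3 lower than erlotinib_24h, where 55.3% were called, 30.5% higher and 24.8% lower, and these comparisons share the DTP libraries. The median log2 fold change of the 8 was 0.37 in DTP, 0.49 in erlotinib_24h, 0.77 in carboplatin_72h, 0.73 in parental_TSA, 0.42 in DTP_TSA over DTP and 0.46 in DTP over erlotinib_24h, where the medians over all genes tested lay between -0.08 and 0.11. In spike-in scaling the medians over all genes were -0.25 in erlotinib_24h (0.11 in TMM scaling), 0.71 in carboplatin_72h (0.06), 0.10 for DTP_TSA over DTP (-0.08), 0.48 for DTP over erlotinib_24h (0.03) and 0.05 for the difference of TSA effects (-0.11). All 46 called values of the 8 genes over the 7 comparisons kept their sign in that scaling, also relative to the shifted median, and 41 kept their call. The exceptions were CCND1 in carboplatin_72h, CDKN2C and RBL2 in DTP over erlotinib_24h, RBL2 in parental_TSA and CCND1 in the difference of TSA effects.

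**Figure D3:**
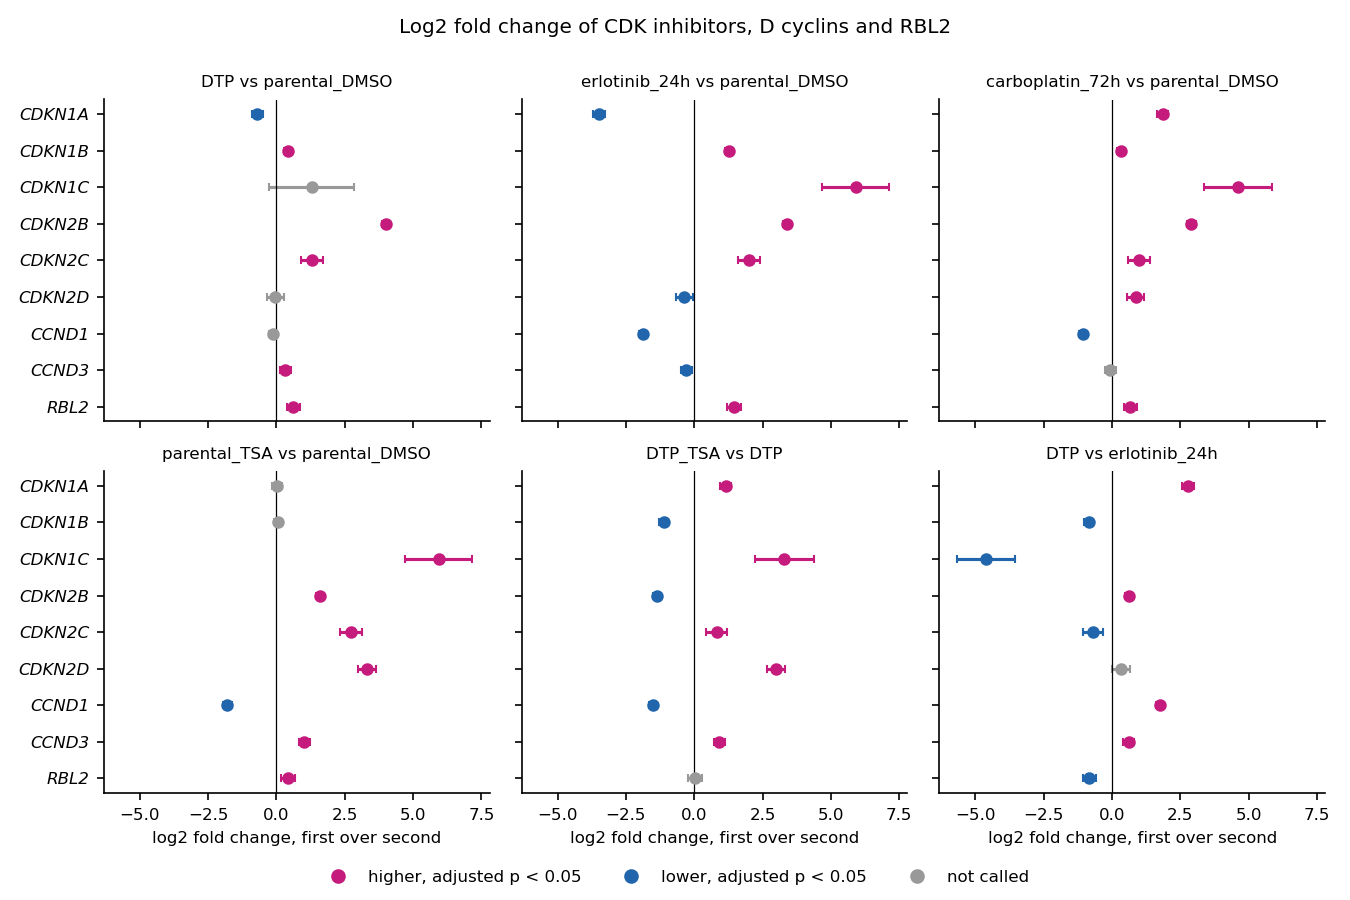
Log2 fold change of the 9 genes in 6 comparisons, each with its 95% interval from the edgeR fit, the first group over the second. Colours mark genes called higher or lower at an adjusted p under 0.05, but the colour of CDKN1C is not to be read as a call. CDKN2B is higher in DTP, erlotinib_24h and carboplatin_72h, by 4.01, 3.41 and 2.91, and CDKN1C is shown although it passed the expression filter only through the groups where it was raised.

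TSA was added to persisters and to parental cells, and the 2 effects were compared with an interaction term, in which 38.3% of all genes tested were called, 15.3% higher and 23.0% lower. Of the 8 genes, 2 were higher and 3 lower. CDKN2B changed in opposite directions. It was lower in DTP_TSA than in DTP, -1.36 ± 0.06 (adjusted p = 2.58e-11), and higher in parental_TSA than in parental_DMSO, 1.59 ± 0.07 (adjusted p = 6.64e-12), a difference of -2.95 ± 0.09 (adjusted p = 1.7e-12). CDKN1A rose in persisters, 1.15 ± 0.09 (adjusted p = 1.37e-08), but stood at 0.02 ± 0.09 (adjusted p = 0.88) in parental cells, a difference of 1.14 ± 0.13 (adjusted p = 3.72e-06). CDKN1B fell in persisters, -1.12 ± 0.07 (adjusted p = 1.28e-09), and stood at 0.05 ± 0.07 (adjusted p = 0.562) in parental cells, a difference of -1.17 ± 0.10 (adjusted p = 2.33e-07). Without both libraries a, these 3 differences were -2.87, 1.22 and -1.03, and CDKN1A in parental_TSA was called lower, at -0.12 (adjusted p = 0.0479).

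CDKN2C rose with TSA in both settings, and by less in persisters, and CDKN1C had more reads with TSA in both. CDKN2C rose by 0.81 ± 0.17 (adjusted p = 0.000673) in DTP_TSA over DTP and by 2.74 ± 0.18 (adjusted p = 2.01e-09) in parental_TSA over parental_DMSO. The difference was -1.92 ± 0.25 (adjusted p = 1.63e-05), and -1.62 (adjusted p = 5.56e-07) without both TSA libraries a. CDKN1C had 136 reads in DTP_TSA and 14 in DTP, a read ratio of 10.5 (95% counting interval 6.05 to 19.7), against the ratio of 58.8 in parental cells given above. An edgeR difference for CDKN1C takes in both parental groups, so for the reason given above no call of it is given. The fitted difference was -2.63 ± 0.81, and -1.81 without DTP a. With only the compared groups fitted it was -2.60, and without both TSA libraries a it was -1.997.

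CDKN2D and the cyclins responded to TSA in the same direction in both settings. CDKN2D rose by 2.98 ± 0.15 (adjusted p = 5.99e-11) in persisters and by 3.30 ± 0.15 (adjusted p = 1.81e-11) in parental cells, and the 95% interval of the difference ran from -0.75 to 0.11. CCND3 rose by 0.92 ± 0.09 (adjusted p = 2.88e-07) in persisters and by 1.02 ± 0.09 (adjusted p = 7.86e-08) in parental cells, with an interval of the difference from -0.39 to 0.18. CCND1 fell by 1.4996 ± 0.07 on the log2 scale in persisters (adjusted p = 2.57e-11) and by 1.79 ± 0.07 in parental cells (adjusted p = 3.63e-12). The difference for CCND1, 0.29 ± 0.10 (adjusted p = 0.023), lost its call without DTP c (0.28, adjusted p = 0.0546), with no filter (0.26, adjusted p = 0.0591) and in spike-in scaling (0.38, adjusted p = 0.421), and was 0.17 (adjusted p = 0.00577) without both libraries a. RBL2 stood at 0.02 ± 0.11 (adjusted p = 0.884) in DTP_TSA over DTP and at 0.43 ± 0.12 (adjusted p = 0.00411) in parental_TSA, and the difference, -0.41 ± 0.16 (adjusted p = 0.0567), was called without parental_TSA a (-0.59, adjusted p = 3.84e-06), without both TSA libraries a (-0.55, adjusted p = 4.04e-07) and with no filter (-0.44, adjusted p = 0.0363). RBL2 in parental_TSA lost its call with the 2 groups fitted alone (0.43, adjusted p = 0.0736) and in spike-in scaling (0.50, adjusted p = 0.0980). Without both TSA libraries a it kept its call, at 0.61 (adjusted p = 3.22e-10).

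**Figure D4:**
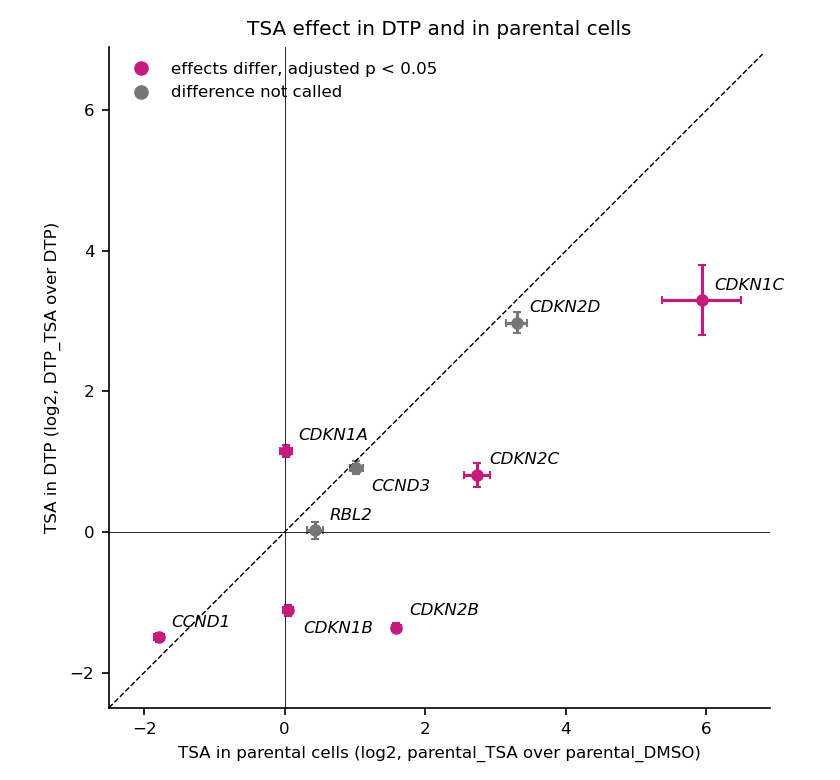
TSA effect in persisters (vertical axis) against TSA effect in parental cells (horizontal axis) for the 9 genes, as log2 fold changes with standard errors, and a dashed line of equal effects. CDKN2B lies below 0 in persisters and above 0 in parental cells, while CDKN2D and CCND3 lie near the line. CDKN1C is shown, but its colour is not to be read as a call.

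The rest of the circuit was followed in 58 genes in 6 lists, all of them tested. In DTP 7 were higher and 38 lower than in parental_DMSO, in erlotinib_24h 10 and 43, and in carboplatin_72h 13 and 32. Of all genes tested, 31.0% were higher and 27.8% lower in DTP, 36.6% and 32.7% in erlotinib_24h, and 30.3% and 28.6% in carboplatin_72h. The counts per list that follow are to be set beside the same shares. The kinase and cyclin E list had 9 of 10 genes lower in DTP, all 10 lower in erlotinib_24h, and 6 lower and 2 higher in carboplatin_72h. Cyclin E1, the partner of CDK2, showed the deepest of these in DTP, with CCNE1 at -1.62 ± 0.06 (adjusted p = 2.22e-13) in DTP and -3.12 ± 0.06 (adjusted p = 7.15e-17) in erlotinib_24h, and its relative CCNE2 was at -3.17 ± 0.10 (adjusted p = 1.99e-14) in erlotinib_24h. CDK4 was at -0.66 ± 0.09 in DTP and -1.60 ± 0.09 in erlotinib_24h. CDK6, the other partner of the D cyclins, was the 1 higher gene in DTP, 0.29 ± 0.09 (adjusted p = 0.0079), a call lost in spike-in scaling (0.38, adjusted p = 0.148), and fell in erlotinib_24h, -1.01 ± 0.09 (adjusted p = 1.6e-08). CDK2 was at -0.19 ± 0.05 in DTP and -1.04 ± 0.05 in erlotinib_24h, and CCNA2 (cyclin A2) at -1.14 ± 0.05 in DTP, all 3 called, of which CDK2 in DTP lost its call in spike-in scaling (-0.10, adjusted p = 0.661).

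The RB and E2F list had 8 of 12 genes lower and 1 higher in DTP, 11 lower and 1 higher in erlotinib_24h, and 9 lower and 2 higher in carboplatin_72h. E2F1, an activator of S-phase genes, averaged 37.3 ± 1.35 CPM in DTP, 7.21 ± 0.149 CPM in erlotinib_24h and 37.0 ± 1.12 CPM in parental_DMSO (SD, n = 3). It fell with 24 hours of erlotinib, -2.36 ± 0.07 (adjusted p = 1.49e-14), while DTP did not differ detectably from parental_DMSO, 0.01 ± 0.07 (adjusted p = 0.903). The repressor E2F7 was lower in erlotinib_24h, at -3.90 ± 0.12 (adjusted p = 2.54e-14) and the DREAM member E2F4 lower in DTP, at -1.16 ± 0.08 (adjusted p = 1.03e-09). RBL1 (p107) fell in DTP, -1.09 ± 0.29 (adjusted p = 0.00363), and in erlotinib_24h, -2.44 ± 0.30 (adjusted p = 1.63e-06), opposite to RBL2. RB1 stood at -0.04 ± 0.10 (adjusted p = 0.767) in DTP and fell in erlotinib_24h, -0.82 ± 0.10 (adjusted p = 1.71e-06). In the MuvB and DREAM list, 5 of 8 genes were lower and 1 higher in DTP, and 6 were lower and 1 higher in erlotinib_24h. FOXM1, a driver of G2 and mitosis genes, was at -0.88 ± 0.09 in DTP, and MYBL2 (B-MYB), which takes the place of RBL2 on MuvB, at -2.46 ± 0.06 in erlotinib_24h, both called.

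Genes of inhibitor turnover and of inhibitor transcription differed between treatments. Of 11 turnover genes 5 were lower in DTP, 8 lower and 2 higher in erlotinib_24h, and 7 lower in carboplatin_72h. SKP2, the ubiquitin ligase subunit that marks CDKN1B for destruction, was at -0.89 ± 0.06 in DTP, -1.37 ± 0.06 in erlotinib_24h and -2.35 ± 0.06 in carboplatin_72h, and DTL, which serves destruction of CDKN1A in S phase, at -4.36 ± 0.09 in erlotinib_24h, all called. Of 12 transcription factor genes 4 were higher and 6 lower in DTP, 6 higher and 3 lower in erlotinib_24h, and 6 higher and 5 lower in carboplatin_72h. FOXO4, a forkhead factor under AKT control, averaged 10.0 ± 0.552 CPM in DTP, 31.5 ± 0.237 CPM in erlotinib_24h, 23.6 ± 1.56 CPM in carboplatin_72h and 2.54 ± 0.233 CPM in parental_DMSO (SD, n = 3). It rose by 1.98 ± 0.17 (adjusted p = 3.36e-08) in DTP, by 3.63 ± 0.18 (adjusted p = 9.38e-12) in erlotinib_24h and by 3.21 ± 0.18 (adjusted p = 1.2e-10) in carboplatin_72h, and FOXO1 by 0.95 ± 0.09 (adjusted p = 5.23e-08) in erlotinib_24h.

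All 5 proliferation markers were lower in DTP and in erlotinib_24h, while after carboplatin 1 was lower and 2 higher. The Ki-67 gene MKI67 was at -1.10 ± 0.18 (adjusted p = 5.41e-05) in DTP, -0.86 ± 0.18 (adjusted p = 0.000418) in erlotinib_24h and 0.18 ± 0.18 (adjusted p = 0.406) in carboplatin_72h, where spike-in scaling gave 0.83 (adjusted p = 0.0174) the 2 groups alone 0.18 (adjusted p = 0.00613) and leaving out both TSA libraries a 0.18 (adjusted p = 0.0317). TOP2A (topoisomerase II) was at -1.51 ± 0.14 in DTP and the replication clamp PCNA at -2.64 ± 0.08 in erlotinib_24h, both called. In carboplatin_72h CDK1 rose by 0.58 ± 0.06 (adjusted p = 3.54e-07) and CDK2 by 0.48 ± 0.05 (adjusted p = 1.34e-07), whereas PCNA was at -0.85 ± 0.08, CDK4 at -0.57 ± 0.09, CDK6 at -0.90 ± 0.09, CCNE1 at -0.19 ± 0.05, RB1 at -0.94 ± 0.10 and RBL1 at -1.36 ± 0.29, all called. Of these lower genes only RBL1 kept its call and sign in spike-in scaling, where CDK4 stood at 0.08 (adjusted p = 0.566) and CCNE1 at 0.45 (adjusted p = 0.0129). E2F1 in carboplatin_72h, 0.21 ± 0.07 (adjusted p = 0.0127), lost its call without carboplatin_72h c (0.18, adjusted p = 0.0540) and with no filter (0.16, adjusted p = 0.114).

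**Figure D5:**
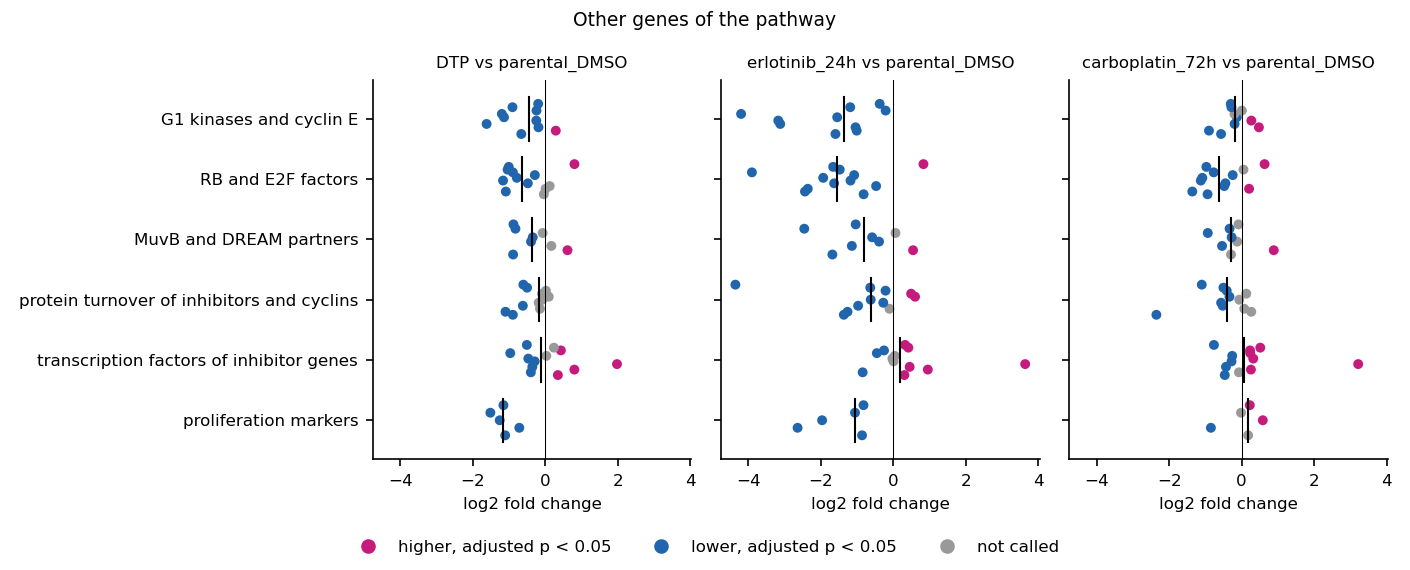
Log2 fold change of 58 other cell cycle genes in DTP, erlotinib_24h and carboplatin_72h over parental_DMSO, 1 point per gene in 6 lists, with a black bar at each list's median. Most points lie below 0 in erlotinib_24h, where 43 of these genes and 32.7% of all genes tested were lower. The farthest point to the right is FOXO4 in all 3 panels.

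Set directly against erlotinib_24h, DTP had 32 of the 58 genes higher and 10 lower, where 30.5% of all genes tested were higher and 24.8% lower. E2F1 was 2.37 ± 0.07 (adjusted p = 4.8e-14) above erlotinib_24h, E2F7 3.01 ± 0.12 (adjusted p = 1.51e-12), CCNE2 2.93 ± 0.10 (adjusted p = 1.64e-13) and DTL 3.75 ± 0.09 (adjusted p = 3.58e-15). CDK4, CDK6, MYBL2 and RBL1 were higher by 0.94 ± 0.09, 1.30 ± 0.09, 1.64 ± 0.06 and 1.35 ± 0.30, all called, while FOXO4 was lower, -1.65 ± 0.16 (adjusted p = 1.49e-07). The 5 proliferation markers were divided, with 2 higher and 2 lower, and MKI67 was not called, at -0.24 ± 0.18 (adjusted p = 0.279). In spike-in scaling 80.9% of all genes called in this comparison were higher in DTP, against 55.1% in TMM scaling. The corresponding shares were 63.3% and 52.7% for DTP, 38.9% and 52.8% for erlotinib_24h, and 89.6% and 51.4% for carboplatin_72h over parental_DMSO, and 62.6% and 45.5% for DTP_TSA over DTP.

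With TSA, 13 of the 58 genes were higher and 28 lower in parental_TSA than in parental_DMSO, where 30.8% of all genes tested were higher and 27.4% lower. In DTP_TSA 16 were higher and 37 lower than in DTP, where 25.6% of all genes tested were higher and 30.7% lower. CDK6 fell in both, -1.21 ± 0.09 (adjusted p = 5.14e-09) in DTP_TSA over DTP and -1.57 ± 0.09 (adjusted p = 2.47e-10) in parental_TSA over parental_DMSO, as did E2F3, -1.50 ± 0.13 (adjusted p = 4.87e-08) and -1.64 ± 0.13 (adjusted p = 1.51e-08). MDM2, which encodes a ubiquitin ligase, was lower, at -0.78 ± 0.06 (adjusted p = 4e-09) and -0.94 ± 0.06 (adjusted p = 3.99e-10) in the same order. CCNE1 rose with TSA in persisters, 0.32 ± 0.05 (adjusted p = 7.8e-05), and fell in parental cells, -0.46 ± 0.05 (adjusted p = 1.35e-06). The difference was 0.79 ± 0.08 (adjusted p = 8.39e-07). DYRK1A, the kinase that assembles DREAM, was at -1.90 ± 0.21, CCNA2 at -1.12 ± 0.05, the zinc finger factor KLF6 at -1.55 ± 0.07, CDK4 at -0.50 ± 0.09 and MKI67 at -1.10 ± 0.18 in DTP_TSA over DTP, all called, although CDK4 (-0.33, adjusted p = 0.0701) and MKI67 (-0.84, adjusted p = 0.0507) were not in spike-in scaling. In parental_TSA, TFDP2, a dimer partner of E2Fs, rose by 1.29 ± 0.07, the MuvB gene LIN37 by 1.45 ± 0.15, CDK2 by 0.58 ± 0.05 and FOXO4 by 2.34 ± 0.17, all called. The TSA effect on FOXO4 was smaller in persisters, a difference of -1.29 ± 0.23 (adjusted p = 0.00037). Without both TSA libraries a, that difference was -1.63, and DYRK1A in DTP_TSA over DTP was at -1.59. In parental_TSA, LIN37 was then at 1.25 and E2F3 at -1.45, and all of these kept their calls.

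Genes with the profile most like that of each member were sought by Pearson's r of log2(CPM + 1) over the 18 libraries, among 10691 genes (10692 for CDKN1C and CDKN2C) with a mean of at least 10 CPM in their highest group. Libraries of a group share their treatment, so the values describe likeness over 6 groups and carry no test. CDKN1A was most like ACP7 (0.979), CDKN1B like RXRB (0.982), CDKN2B like NEURL3 (0.975) and GABARAPL1 (0.969), CDKN2C like SAP30L (0.980) and CDKN2D like EMC2 (0.986). CCND1 was most like PYGO1 (0.979), CCND3 like TMCC2 (0.978) and RBL2 like ZNF217 (0.976) and BMF (0.958). For CDKN1C, at its low level, the highest value was 0.958 with UBXN1.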

How the data were processed

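The deposited gene and spike-in tables hold expected counts that the authors estimated with Salmon, per the submitters' processing notes. The Salmon version, genome build, annotation and use of strand were not given in the sources used here. Libraries were made from poly-A-selected RNA, per the labels' protocols. The expected counts of 18 libraries were rounded to whole numbers, and 3 columns per table that match no sample used here were left out. Of 30727 identifiers 27814 carry a symbol, and those without hold 0.247% of reads.

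Genes were filtered with filterByExpr, scaled with TMM and tested by quasi-likelihood in edgeR 4.0.16 (R 4.3.3, limma 3.58.1), in 1 model over 6 groups which left 12 residual degrees of freedom (biological coefficient of variation 0.136). P-values were adjusted with the Benjamini-Hochberg method over 17641 genes and called below 0.05. The procedure was also run on simulated data in which few genes changed, and only in DTP. That setting differs from these data, where a large share of all genes was called. Libraries held 32139343 to 128293531 gene reads. The members and lists were chosen with earlier results of these data known. All 10 members were described, and of the 58 other genes 9 were to be named in the drug comparisons whatever their value, 1 of which is not reported here, beside up to 3 per list and comparison with the smallest p and at least 1 CPM.

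The 27 alternatives were 18 fits that leave out 1 library each, DESeq2 1.42.0, its size factors in edgeR, no filter, a filter of 1 CPM in 3 libraries, a replicate block, the compared groups alone, scaling to ERCC spike-ins with and without DTP_TSA a, and leaving out both TSA libraries a. Libraries of DTP and erlotinib_24h with the same letter deviated together (r = 0.160, 0.192 and 0.109), and a block on the letter changed no call of a member there. Lengths are of GENCODE transcripts, and promoters are from RefSeq GRCh38.p14.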

Additional observations from a re-analysis of the deposited data

Results flagged for a closer look

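The effect of TSA in persisters (DTP_TSA over DTP) was compared with its effect in parental cells (parental_TSA over parental_DMSO) by the edgeR interaction term. Of the 8 genes counted, without CDKN1C and CCND2, 2 were called higher and 3 lower. The difference in log2 fold change was 1.14 for CDKN1A, -1.17 for CDKN1B, -2.95 for CDKN2B, -1.92 for CDKN2C and 0.29 for CCND1. Among the genes called, CDKN2B was the 1 with called effects of opposite sign when all libraries were fitted. Without both TSA libraries a, CDKN1A also had them, 1.10 in DTP_TSA over DTP and -0.12 (adjusted p = 0.0479) in parental_TSA. Of all genes tested, 38.3% were called by the same term. The fitted difference of CDKN1C was -2.63. It had few reads and passed the expression filter only through the groups where it was raised, so no call of it is given.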

How the results depend on the processing

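Of 1701 values of the 9 genes under 27 alternatives, 1604 kept their direction and side of the threshold, 67 lost a call, 13 gained one and 17 changed sign. Of 1863 values of other named genes 1780 were kept, 70 lost a call, 3 gained one and 10 changed sign. MKI67 in DTP over erlotinib_24h and CCNE1 in parental_TSA are not among the latter. Spike-in scaling with DTP_TSA a kept gave the most losses: the members called (of 9, CDKN1C included) numbered 1 in DTP, 2 in erlotinib_24h and 0 in the other 5 comparisons (edgeR's unadjusted p was under 0.05 for 1, 4, 3, 3, 2, 3 and 1 in the order DTP, erlotinib_24h, carboplatin_72h, parental_TSA, DTP_TSA over DTP, DTP over erlotinib_24h and difference of TSA effects), the 58 other genes 3 in erlotinib_24h and 0 elsewhere (unadjusted 0, 12, 1, 1, 0, 7 and 0), and all genes 288, 419, 75, 26, 29, 90 and 0 (unadjusted 1407, 2286, 1797, 921, 726, 1144 and 192). Without DTP_TSA a, spike-in scaling called 28 other genes in DTP_TSA over DTP, and 6 other genes and 2734 of all genes for the difference of TSA effects, for which leaving out both TSA libraries a called 41 others. Signs changed with both spike-in scalings for CDKN2D (0.0485) and RB1 (0.0520) in DTP, CCND3 (0.57), CDK4 (0.0815 and 0.0814) and CCNE1 (0.45) in carboplatin_72h and CDKN1A in parental_TSA (-0.0140). With DTP_TSA a kept they also changed for RBL2 (-0.38) and CCNE1 (-0.0660) in DTP_TSA over DTP and CCND1 in the difference (-0.20). Without a filter they changed for E2F1 in DTP (-0.00090) and RBL2 in DTP_TSA over DTP (-0.0116), and without both TSA libraries a for CDKN1A (-0.12) and CDKN1B (-0.00864) in parental_TSA. The causes were not tested. Leaving out 1 library kept the members called (again of 9, CDKN1C included) at 6 to 7 in DTP, 8 to 9 in erlotinib_24h, 8 in carboplatin_72h, 7 in parental_TSA, 8 in DTP_TSA over DTP, 8 to 9 in DTP over erlotinib_24h and 5 to 7 in the difference. As they take in CDKN1C, of which no call is given, these are not the counts without CDKN1C given in the results. The other genes called ran from 43 to 48 in DTP, 53 to 54 in erlotinib_24h, 39 to 47 in carboplatin_72h, 37 to 46 in parental_TSA, 49 to 54 in DTP_TSA over DTP, 41 to 45 in DTP over erlotinib_24h and 21 to 32 in the difference, and all genes from 9461 to 11727 in DTP, 11438 to 13324 in erlotinib_24h, 9351 to 11827 in carboplatin_72h, 9162 to 11713 in parental_TSA, 8876 to 11168 in DTP_TSA over DTP, 8743 to 11251 in DTP over erlotinib_24h and 5777 to 7848 in the difference. Single values spanned 0 for CDKN1A (-0.128 without parental_TSA a to 0.111 without c, and -0.0145 without parental_DMSO b) and CDKN1B (-0.0145 to 0.0879 without the same 2) in parental_TSA, E2F1 (-0.0194 without DTP c to 0.0378 without parental_DMSO a, and -0.00744 without parental_DMSO c) and CDKN2D (-0.103 without DTP c to 0.0394 without b) in DTP, RBL2 in DTP_TSA over DTP (-0.00202 without DTP_TSA b to 0.0605 without a) and CCND3 in the difference (-0.203 without parental_TSA c to 0.0260 without parental_TSA a). CDKN2D in erlotinib_24h also lost its call with the replicate block (-0.36, adjusted p = 0.0527), DESeq2 (-0.33, adjusted p = 0.0678), its size factors in edgeR (-0.33, adjusted p = 0.0649) and a filter of 1 CPM (-0.28, adjusted p = 0.108). The block ended no other call of a member. Whether other libraries with the same letter share more than the letter is not stated. Of 24 distinct pairs of them 5 had r over 0.1, and r ran from -0.277 to 0.377. The lowest was erlotinib_24h with parental_DMSO for b, and the highest carboplatin_72h with parental_DMSO for c. Low reads limit CDKN1C and CCND2.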
